A study of Rattus norvegicus with 2 samples.

Results

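This report describes the distal intron 1 peaks of a histone mark in rat heart muscle. These are the peaks that the deposited annotation places in the first intron of a transcript, with a centre more than 1000 bp from the nearest transcription start site (TSS). The rule selected 4419 of 28706 peaks (15.4%, 95% Wilson interval 15.0 to 15.8%), which is 70.4% of the 6276 peaks in any first intron. They came from 1 chromatin immunoprecipitation (ChIP) library of myocardium from male Wistar rats whose abdominal aorta had been narrowed by a ligature above the renal arteries, a surgery that puts a pressure load on the heart. The second sample, an input library of the same model and replicate number, has no values analysed here. The labels name the antibody only by vendor and catalogue number, and the series title names lactylation of lysine 18 of histone H3 (H3K18la). The age of the rats, how many gave the chromatin and the time since surgery are not given in the labels. No unoperated group and no replicate was analysed, so the values have no replicate error and no difference was tested. Intervals cover counting error only.

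H3K18la is a mark made from lactate, the product of glycolysis, and it is known from active promoters and enhancers in several tissues. First introns are on average the longest introns of a gene. They hold many enhancers and alternative start sites, so a mark inside a first intron can lie far from the promoter of the same gene.

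Promoters of genes with distal intron 1 peaks covered a wide range of base composition. This is shown by 4 of the genes with the strongest or most numerous such peaks. Each gene has a single promoter here, not matched to the transcript whose first intron holds the peaks. Each sequence below runs from 250 bases before to 50 bases after the gene's start, 5′ to 3′ on the strand of the gene, from RefSeq on the assembly GRCr8. Capitals mark CG dinucleotides. Klf9, a zinc finger transcription factor induced by glucocorticoids (chr1:230126396-230126695, plus strand), had 32 CG pairs. Sptbn1, the membrane skeleton protein beta-II spectrin (chr14:108217787-108218086, minus strand), had 37. Ninj2, the adhesion protein ninjurin 2 (chr4:154978551-154978850, plus strand), had 7, and Adgrf5, an adhesion G protein-coupled receptor (chr9:25121188-25121487, minus strand), had 5.
Klf9: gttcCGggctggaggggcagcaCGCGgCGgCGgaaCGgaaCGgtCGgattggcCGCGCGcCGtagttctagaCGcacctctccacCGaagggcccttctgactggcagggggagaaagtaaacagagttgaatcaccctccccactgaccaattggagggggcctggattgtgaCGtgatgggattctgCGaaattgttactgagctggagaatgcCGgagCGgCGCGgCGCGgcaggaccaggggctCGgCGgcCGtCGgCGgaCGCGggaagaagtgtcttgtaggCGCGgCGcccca
Sptbn1: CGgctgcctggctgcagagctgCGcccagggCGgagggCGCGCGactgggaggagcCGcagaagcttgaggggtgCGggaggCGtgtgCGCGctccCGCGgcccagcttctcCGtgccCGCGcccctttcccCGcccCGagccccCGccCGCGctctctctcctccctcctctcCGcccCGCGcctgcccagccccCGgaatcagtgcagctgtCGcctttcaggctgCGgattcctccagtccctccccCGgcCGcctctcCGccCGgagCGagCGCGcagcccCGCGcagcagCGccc
Ninj2: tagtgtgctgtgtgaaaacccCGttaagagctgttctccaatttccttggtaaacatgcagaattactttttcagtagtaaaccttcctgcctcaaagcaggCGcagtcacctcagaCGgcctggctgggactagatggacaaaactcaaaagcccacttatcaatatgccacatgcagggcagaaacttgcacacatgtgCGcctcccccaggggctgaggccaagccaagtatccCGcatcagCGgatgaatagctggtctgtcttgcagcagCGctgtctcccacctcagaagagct
Adgrf5: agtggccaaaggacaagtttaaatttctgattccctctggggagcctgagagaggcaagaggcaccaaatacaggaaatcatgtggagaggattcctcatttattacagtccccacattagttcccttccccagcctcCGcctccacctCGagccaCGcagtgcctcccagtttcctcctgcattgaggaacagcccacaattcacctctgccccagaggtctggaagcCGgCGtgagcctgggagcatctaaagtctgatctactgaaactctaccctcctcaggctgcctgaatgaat
The sequences of Klf9 and Sptbn1 are dense in CG pairs along their length, and those of Ninj2 and Adgrf5 hold few.

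Over all matched genes, promoters of genes with a distal intron 1 peak held more CG pairs than the typical promoter. Among 676 such promoters whose gene also had a peak centre within 1 kb of the TSS, the median was 25 CG pairs. Among 398 promoters of genes with a distal intron 1 peak and no peak centre within 1 kb, it was 18. All 18999 protein-coding promoters had a median of 12, and the 2581 promoters of genes with a peak near the TSS but no distal intron 1 peak had 23. The GC box, spelled GGGCGG and searched on both strands, was present in 73.1% and 55.5% of the promoters with a distal intron 1 peak, with and without a near peak. It was present in 67.9% of promoters with a near peak only and in 43.1% of all promoters. Promoters of genes with other peaks only, which had a median of 16 CG pairs and a GC box in 51.1%, lay close to the second of these groups. Of the single letter strings searched in the same way, the TATA box (TATAAA) was in 5.77% and 8.54% of promoters with a distal intron 1 peak against 13.1% of all. The CCAAT box (CCAAT) was in 32.5% and 36.4% against 38.4%, and the E-box (CACGTG) in 7.99% and 7.29% against 7.26%. The glucocorticoid receptor palindrome (ACANNNTGT) was in 3.55% and 4.27% against 5.51%, the AP-1 motif (TGANTCA) in 5.33% and 4.27% against 6.65%, and the GATA motif (AGATAA) in 4.88% and 4.52% against 9.93%. Promoters with a near peak only were similar, with the TATA box in 6.35%, the glucocorticoid receptor palindrome in 2.91%, AP-1 in 5.04% and GATA in 4.84%. Their shares for the CCAAT box and the E-box were 35.8% and 9.92%. In promoters of genes with other peaks only, the TATA box was in 9.79% and the GATA motif in 7.05%. A match describes letters in this window and is not a binding site.

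The strongest distal intron 1 peak lay at Klf9. Peaks are ranked here at genes whose name matched a current symbol. The authors' fold enrichment, the ratio of ChIP signal to the caller's local background, was 12.1 there (rn6, chr1:240908327-240912290). This peak was 3964 bp wide, its centre lay 1.825 kb downstream of the TSS, and it reached across the start site itself. Klf9 had 4 further peaks in the same intron, at 5.652, 6.931, 11.031 and 19.1 kb, with folds of 3.43, 3.42, 3.44 and 3.17. The 4 weaker peaks were alike in strength and all well below the first.

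Of the other peaks among the 12 strongest at such genes, 2 lay at Pxn (paxillin, an adaptor of focal adhesions). Their folds were 10.2 (chr12:46829866-46835248) and 9.32 (chr12:46835690-46836481). Pxn had 13 distal intron 1 peaks from 2.73-fold to 10.2-fold, and the annotation measured them from different start sites of the gene, from -17.4 kb to 12.5 kb. The transcript whose first intron holds them could not be tied to a gene name here. Adgrf5 reached 10.2-fold at 5.11 kb (chr9:20189813-20191099), and its other 12 distal intron 1 peaks lay between 2.95-fold and 4.96-fold. Klf13, another Krüppel-like zinc finger factor, reached 10.1-fold at 12.927 kb (chr1:124788989-124791883). It had 7 such peaks in all, of which those at 15.758 and 18.172 kb also stood above 6-fold, at 6.51 and 7.04. Sptbn1 reached 9.68-fold at 4.554 kb (chr14:114577893-114579244). Esam, an adhesion molecule of endothelial junctions, had a single distal intron 1 peak of 9.63-fold and 4160 bp (chr8:39996841-40001000), centred 1.045 kb from the TSS and reaching across it. Of the genes named here, Pxn, Adgrf5, Klf13 and Sptbn1 had several further distal intron 1 peaks, and Esam had no other. That the further peaks are weaker follows from naming the strongest.

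Distance from the TSS varied among the remaining strong peaks. Bicral, a subunit of a SWI/SNF chromatin remodelling complex, had 1 distal intron 1 peak, of 9.22-fold at 12.687 kb (chr9:16439639-16440914). Ninj2 reached 9.14-fold at 47.769 kb (chr4:152677652-152678824). Clic4 and Clic5, members of the chloride intracellular channel family, reached 8.87-fold at 16.27 kb (chr5:153609072-153610127) and 8.66-fold at 39.818 kb (chr9:19330203-19335507). Lims2, a LIM domain adaptor of integrin adhesions, reached 8.45-fold at 7.359 kb (chr18:24724097-24725294). All 5 genes but Bicral also had a peak within 1 kb of the TSS, and it was weaker in each, with 4.05-fold at Ninj2, 6.62 at Clic4, 4.55 at Clic5 and 7.01 at Lims2. These genes were chosen for a strong distal intron 1 peak, which favours that outcome. Over all 865 genes with both, the strongest distal intron 1 peak was the higher in 51.4%.

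Width picked out a partly different set. The 6 widest distal intron 1 peaks lay at Psma6, a proteasome subunit, with 5514 bp (chr6:76176220-76181733), Pxn with 5383 bp, Clic5 with 5305 bp, the forkhead factor Foxo3 with 4966 bp (chr20:46452020-46456985), the Ras GTPase regulator Dab2ip with 4865 bp (chr3:14952457-14957321), and the clock repressor Per2 with 4429 bp (chr9:98592733-98597161). Their folds ran from 6.59 at Psma6 to 10.2 at Pxn. In all, 88 distal intron 1 peaks (1.99%) were at least 2000 bp wide, against 1.79% of all peaks. The Spearman correlation of width and fold over the 4419 peaks was 0.312, given as a description of peaks that share 1 library.

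As a class, distal intron 1 peaks had a median strength close to that of the other classes, and fewer of them reached 6-fold. Their median fold was 4.08 (95% interval of the median 4.05 to 4.10), with quartiles of 3.59 and 4.73 and a range of 2.16 to 12.1. A fold of at least 6 was reached by 212 of them (4.80%, Wilson interval 4.21 to 5.47%), against 6.31% of all peaks. The share was 8.78% (7.57 to 10.2%) among the 1857 intron 1 peaks within 1 kb of a TSS, 6.001% (5.44 to 6.61%) among 6299 peaks in later introns, 6.24% (5.81 to 6.69%) among 11803 intergenic peaks and 7.20% (6.30 to 8.21%) among 2807 promoter-TSS peaks. At 8-fold or more the share was 0.792% (35 peaks), against 0.777% of all peaks, 0.667% in later introns, 0.746% between genes, 0.962% in promoters and 1.08% near the TSS in intron 1, so the difference seen at 6-fold was not seen against later introns or intergenic peaks at 8-fold. The interval of the distal intron 1 peaks at 6-fold overlapped that of later introns by a narrow margin and lay below the others. These intervals count each peak as independent, though 51.7% of the class lay in runs of neighbouring peaks. They are therefore too narrow to rank the classes. Medians differed little, with 4.19 near the TSS in intron 1, 4.11 in later introns, 4.16 between genes and 4.09 in promoters. The median −log10 q was 3.66, against 4.36 in near intron 1 peaks and 3.76 in later introns. The median width was 361 bp (quartiles 255 and 570 bp), against 422 bp near the TSS in intron 1 and 367 bp in later introns.

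**Figure D1:**
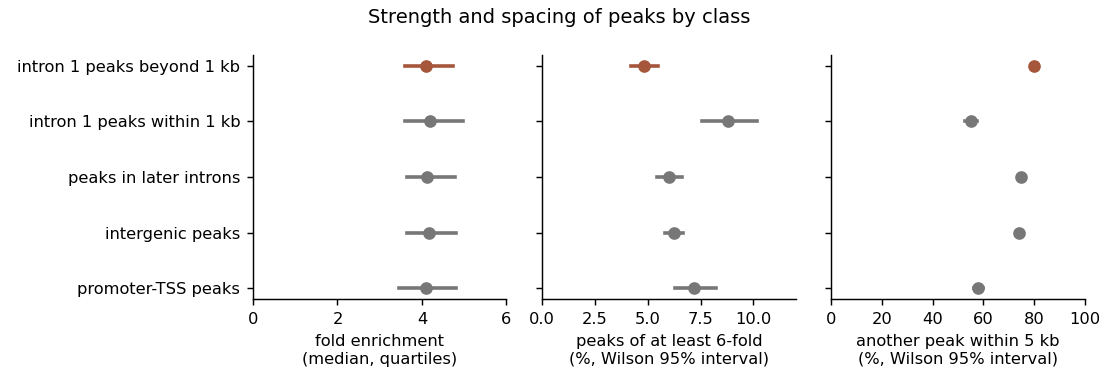
Strength and spacing of peaks in 5 annotation classes of 1 library. Left, fold enrichment with the median as a point and the quartiles as a bar. Middle, percent of peaks of at least 6-fold. Right, percent with another peak within 5 kb, both with Wilson 95% intervals (bars shorter than the points where not seen). Distal intron 1 peaks sit lowest in the middle panel (4.80%) and highest in the right one (80.1%), with medians alike in the left panel.

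The boundary of the class cuts through a continuous range. The distal intron 1 peaks just beyond it lay at Hip1r (1.001 kb, 3.86-fold), at Stc1, which encodes the secreted glycoprotein stanniocalcin 1 (1.003 kb, 3.99-fold), and at Fgd5, an exchange factor for the GTPase Cdc42 in endothelium (1.003 kb, 4.79-fold). The intron 1 peaks just inside it lay at the unnamed model AABR07027431.1 (0.994 kb, 4.66-fold), at Gabpb1, a subunit of the factor GABP (0.995 kb, 4.18-fold), and at Zc3h7b (0.999 kb, 4.73-fold). Distance is measured from the peak's centre, so 148 distal intron 1 peaks (3.35%) had an edge within 1 kb of the TSS and 10 covered it. Of those 148, 14.2% reached 6-fold, and of the 4271 that lay wholly beyond 1 kb, 4.47% did. A wide peak has an edge within 1 kb more readily, and width and fold were correlated (Spearman 0.312). These shares therefore do not compare distance alone. By centre, 5.67% of the 529 peaks at 1 to 2 kb reached 6-fold.

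Most distal intron 1 peaks lay many kilobases into the gene. The median distance to the nearest TSS was 11222 bp, with quartiles of 4156.5 and 25877.5 bp. The farthest 3 lay at Ext1, an enzyme that polymerises heparan sulfate, at 225.648 kb (3.38-fold), 206.862 kb (4.61-fold) and 205.48 kb (4.32-fold). By distance, 529 peaks lay at 1 to 2 kb, 766 at 2 to 5 kb, 776 at 5 to 10 kb, 1206 at 10 to 25 kb, 740 at 25 to 50 kb, 340 at 50 to 100 kb and 62 farther out. Per kilobase of distance the number fell by steps from 529 at 1 to 2 kb through 155 at 5 to 10 kb to 6.8 at 50 to 100 kb. How many genes have a first intron that reaches each distance was not counted, because no annotation of rn6 was used here. Strength did not follow distance. The median fold lay between 3.95 and 4.11 in all 7 bins, and the Spearman correlation of distance and fold was -0.0055 over the 4419 peaks.

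**Figure D2:**
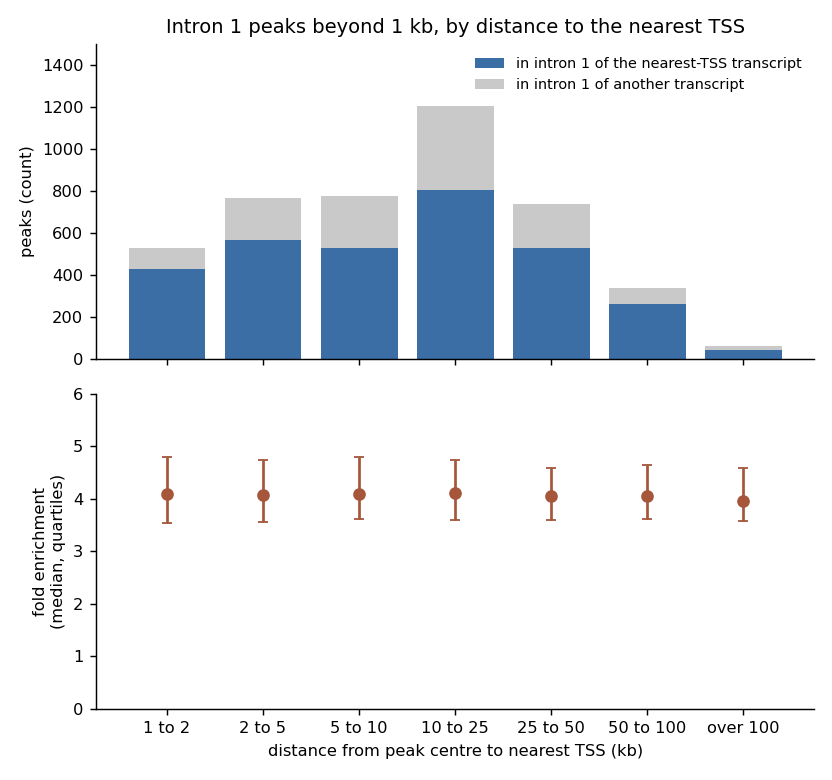
Distal intron 1 peaks by distance from the peak centre to the nearest TSS, in kb and in bins of unequal width. Top, number of peaks, split by whether the first intron belongs to the transcript with that TSS. Bottom, median fold enrichment (points) with quartiles (bars). Counts are highest at 10 to 25 kb (1206 peaks), and the medians stay between 3.95 and 4.11.

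The intron and the nearest TSS usually belonged together. In 3162 of the 4419 peaks (71.6%, 70.2 to 72.9%) the first intron was that of the transcript whose TSS was nearest. In 534 (12.1%) it was that of another transcript of the same gene, in 354 (8.01%) that of another gene, and in 369 (8.35%) the host transcript could not be tied to a gene. Peaks lay downstream of the nearest TSS in 3803 cases (86.1%, 85.0 to 87.1%). All 616 upstream peaks were among those whose nearest TSS was not that of the host transcript.

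The 354 peaks inside another gene lay in 117 host genes, and their names hide the host. The strongest was a 10.3-fold peak named for a U6 small nuclear RNA, which lay in the first intron of Coro2b, a coronin that binds actin (chr8:67476048-67478647). An 8.52-fold peak named for the long noncoding model AABR07004100.1 lay in the first intron of Klf13 (chr1:124773736-124777705), beside the Klf13 peaks above. In 230 of the 354 the nearest model had no matched symbol. Counted by host, Pakap held 28 distal intron 1 peaks (12 of them named for another model), Zfp710 held 22 (11) and Rbm20, a splicing regulator of titin, held 21 (8). The reverse also occurred. The 4 peaks named for the Z-disc gene Myoz2 lay -101.8 to -96.1 kb from it, in the first intron of Synpo2. The 3 named for Echs1, a beta-oxidation enzyme, lay in Zfp710, and the 5 named for Ldhd, a mitochondrial D-lactate dehydrogenase, lay in Znrf1.

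Distal intron 1 peaks were spread unevenly over genes. They were assigned to 1549 genes, of which 765 (49.4%) had 1 such peak and 82 (5.29%) had 10 or more. Those 82 genes held 1191 peaks, or 27.0% of the class. The 6 genes with the most were Sptbn1 with 28, Cyth1 and Ninj2 with 27 each, Dab2ip with 26, and Galnt18 and Ksr1 with 24 each. Cyth1 encodes the ARF exchange factor cytohesin 1, Galnt18 belongs to the family that starts mucin-type O-glycans, and Ksr1 is a scaffold of the RAF-MEK-ERK cascade.

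The layout differed between these genes. At Cyth1 the peaks ran from 1.121 to 54.825 kb of a single first intron, from 2.46-fold to 7.05-fold, with a median of 4.09. At Ninj2 they ran from 6.327 to 94.822 kb, from 2.62-fold to 9.14-fold. Of the 27 Ninj2 peaks 5 reached 6-fold, at 47.769, 52.467, 78.325, 82.478 and 93.21 kb. At Galnt18 the nearest lay 29.952 kb and the farthest 121.15 kb from the TSS, and the strongest was 6.51-fold. At Ksr1 they lay between 1.225 and 74.624 kb and had the highest median of the 6 genes, 4.63-fold. At Sptbn1 the 28 peaks lay in first introns of 3 transcripts, from -32.1 to 31.0 kb of the nearest start site, with 3 of them above 6-fold. At Dab2ip they lay in first introns of 2 transcripts, from -49.8 to 37.8 kb, and the strongest was 7.89-fold. The medians of the 6 genes lay between 4.09-fold and 4.63-fold, close to the 4.08 of the class, with 1 to 5 peaks per gene above 6-fold.

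**Figure D3:**
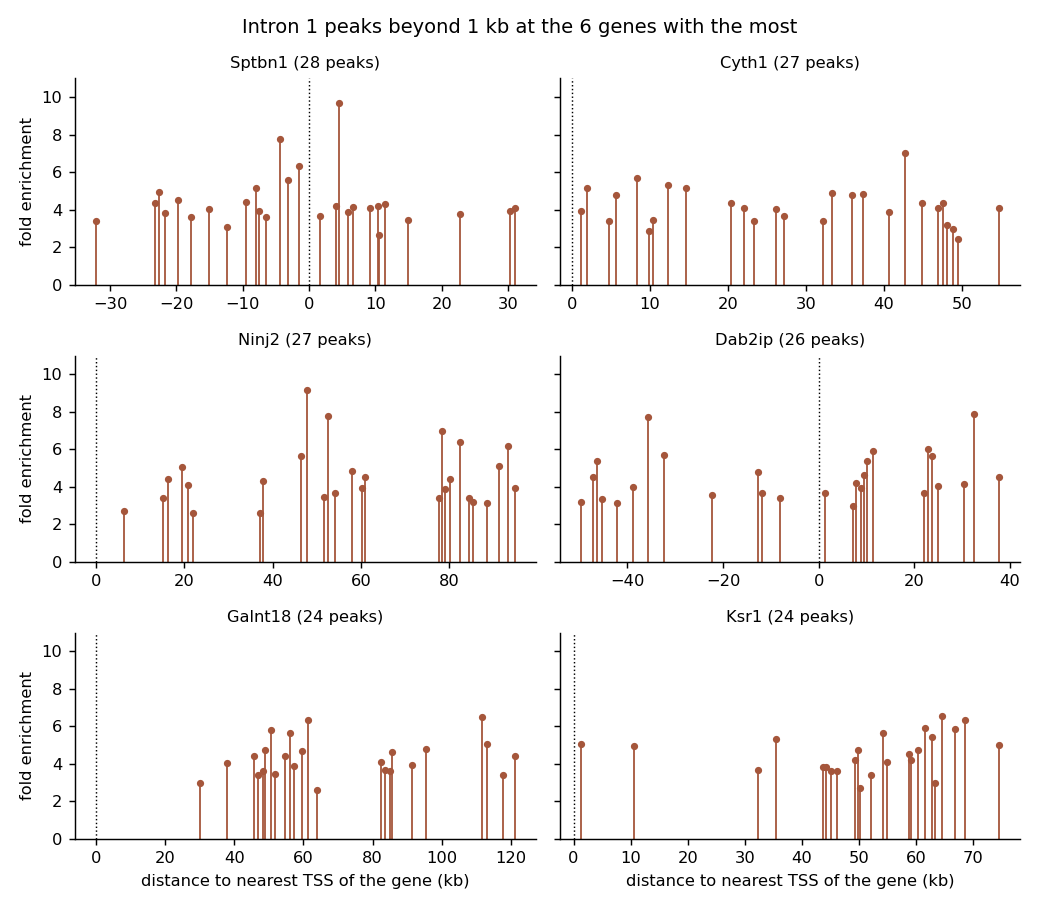
Distal intron 1 peaks at the 6 genes with the most. Each stem is 1 peak; the horizontal axis is the signed distance in kb from its centre to the nearest TSS of the gene (dotted line), which can be a different start site for different peaks of Sptbn1 and Dab2ip, and the vertical axis is fold enrichment. Strong peaks of 6-fold or more stand among peaks near 4-fold, at 47.769 kb for Ninj2 and 4.554 kb for Sptbn1.

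Neighbouring distal intron 1 peaks often lay in runs. Another peak of any class lay within 1 kb of 58.3% of them and within 5 kb of 80.1% (78.9 to 81.2%). Over all peaks these shares were 54.6% and 71.7%, so the excess within 1 kb was small. The share within 1 kb was 56.3% in later introns, 55.5% between genes, 50.1% in promoters and 46.4% for near intron 1 peaks. The share within 5 kb was 74.9% (73.8 to 75.9%) in later introns, 73.9% between genes, 58.0% in promoters and 55.1% for near intron 1 peaks. When distal intron 1 peaks within 1 kb of each other were joined, 2286 of them (51.7%) fell into 854 stretches of 2 or more. There were 6 stretches of at least 10 kb. The longest was 13.755 kb at Epas1, which encodes the hypoxia-inducible factor HIF-2alpha (chr6:10313683-10327437). It held 11 peaks that covered 70.9% of its length, with a strongest value of 7.38-fold. The others lay at Sh3pxd2a (12.166 kb, 9 peaks), Pitpnm2 (11.677 kb, 7 peaks), Pxn (10.907 kb, 6 peaks), Ksr1 (10.434 kb, 9 peaks) and Sptbn1 (10.081 kb, 5 peaks). Epas1 had 21 distal intron 1 peaks in all, each in the first intron of a transcript other than the one with the nearest TSS.

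Many genes with a distal intron 1 peak also had a peak at the TSS. A peak centre lay within 1 kb of the TSS in 865 of the 1549 genes (55.8%, 53.4 to 58.3%). Over all 8554 genes with a peak of any kind, which include those with near peaks alone, it did in 52.0% (50.9 to 53.0%), and over the 6160 genes with any peak beyond 1 kb in 33.3% (32.1 to 34.5%). The share was 40.3% (38.2 to 42.4%) among 2096 genes with a peak in a later intron and 31.6% (30.1 to 33.1%) among 3886 genes with an intergenic peak. These gene sets overlap. With promoter-TSS peaks counted alone, the shares were 29.2%, 21.8% and 19.5%. By the number of distal intron 1 peaks in the gene, the share was 51.5% of 765 genes with 1, 57.6% of 542 genes with 2 to 4, 62.5% of 160 genes with 5 to 9 and 72.0% of 82 genes with 10 or more. For 371 of the 1549 genes (24.0%) distal intron 1 peaks were the only peaks assigned.

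Within the 865 genes with both, neither position was generally the stronger. The strongest distal intron 1 peak exceeded the strongest near peak in 445 genes (51.4%, 48.1 to 54.8%). In the 283 genes with exactly 1 of each it did so in 128 (45.2%, 39.5 to 51.1%). Grk5, a kinase that desensitises adrenergic receptors, was far stronger inside the intron. Its 7 distal peaks lay from 33.435 to 57.021 kb, with folds of 2.67, 3.95, 7.83, 3.55, 8.37, 6.17 and 4.12 in order of distance, while its strongest near peak was 3.41-fold. Klf13 (10.1 against 4.9998), Ninj2 (9.14 against 4.05) and Adgrf5 (10.2 against 5.18) leaned the same way. At Esam the values were 9.63 and 3.50, but its 9.63-fold peak covers the start site. The opposite held at Sgk1, a kinase induced by glucocorticoids, with 4.83 in the intron and 10.3 near the TSS, and at the tropomyosin gene Tpm4, with 4.10 and 8.64. These genes were chosen after their values were seen.

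**Figure D4:**
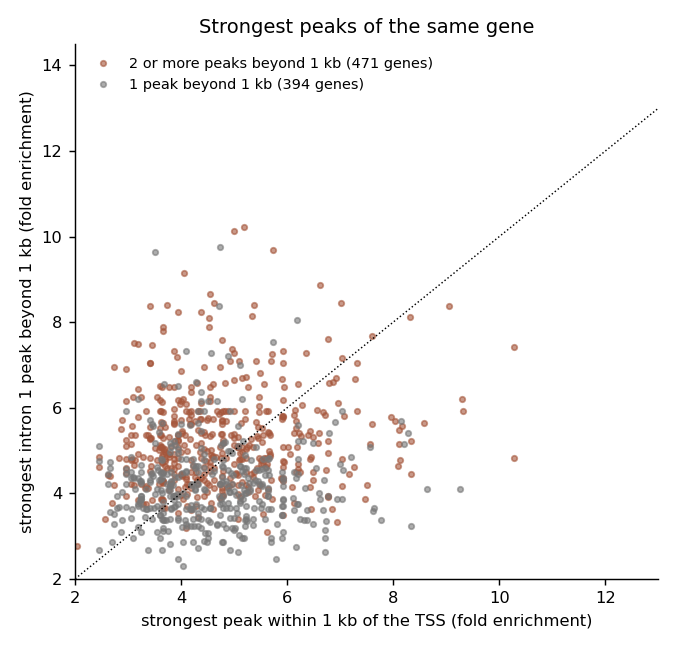
Strongest peak within 1 kb of the TSS (horizontal) against strongest distal intron 1 peak (vertical), both as fold enrichment, for the 865 genes with both. Points are genes, coloured by whether they have 1 or more distal intron 1 peaks, and the dotted line marks equal values. Points lie on both sides of the line, with 445 genes above it.

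Gene length moved with these counts. Of 1305 protein-coding genes with a distal intron 1 peak and a matched name, the median length on GRCr8 was 54.5 kb, against 15.5 kb for all 23148 protein-coding genes and 28.1 kb for those with any peak. Genes with 5 or more such peaks had a median of 104 kb. With genes split by length into 4 groups of equal size, from the shortest, the share of genes with a distal intron 1 peak was 0.397%, 2.82%, 6.32% and 13.01%. The part of length in the gene lists below was not tested. The median gene length of a list ran from 8.74 kb for oxidative phosphorylation to 115 kb for brain. It was 110 kb for hypertrophic signalling, 77.9 kb for the intercalated disc and dystrophin complex, 56.8 kb for cardiac transcription factors, 52.8 kb for calcium handling and ion channels, 52.1 kb for fibroblast and extracellular matrix and 35.9 kb for smooth muscle and pericyte genes. In the other 17 lists it lay between 13.3 and 29.8 kb.

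For the gene lists the yardstick is that 5.64% of protein-coding genes (5.35 to 5.94%) had a distal intron 1 peak, or 20.8% of those with any peak. Per megabase of protein-coding gene there were 3.49 such peaks. Cell type markers were read first, since myocardium is a mixture. Of 12 cardiomyocyte markers, Tnnt2, Actn2 and Pln had a distal intron 1 peak and 8 had a peak of any class, while Myh6, Ttn, Ryr2 and Nppa had none assigned. Of 10 endothelial markers 6 had one (Cdh5, Kdr, Flt1, Tek, Erg and Eng) and 8 had a peak of any class, while Pecam1 and Emcn had none. None of 8 fibroblast markers did, and 7 of those 8 had no peak of any class. In the other types 1 marker each had one, Pdgfrb of 9 for smooth muscle and pericytes, Csf1r of 8 for immune cells, Snap25 of 5 for neurons and Pparg of 5 for adipocytes. Pdgfrb and Csf1r were named for peaks whose host transcript could not be tied to a gene. In bulk tissue, fewer cells of a type and less of the mark per cell cannot be told apart.

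Of the 25 lists, the endothelial genes had the highest share with a distal intron 1 peak, counted over all genes of a list. Counted over genes with any peak, they stood at 55.6%, below smooth muscle and pericyte genes (60%) and fibroblast and matrix genes (56.25%). A distal intron 1 peak was assigned to 15 of 30 (50%, Clopper-Pearson interval 31.3 to 68.7%), at a median gene length of 29.8 kb. They carried 68 such peaks, or 42.9 per megabase of their length. With peaks kept only where the nearest TSS was that of the host transcript, 11 of the 30 genes remained (36.7%). With a 2000 bp boundary 10 of 30 did (33.3%), against 9 of 28 fibroblast and matrix genes (32.1%). All 15 endothelial genes with a distal intron 1 peak also had a peak within 1 kb of the TSS. So did 26 of all 30 genes of the list (86.7%), and 55.8% of all genes with a distal intron 1 peak. The ETS factors Ets1 and Fli1 held 19 and 16 of the 68. At Ets1 the peaks ran from 4.682 to 33.039 kb. The first was 4.08-fold, the strongest 8.37-fold at 25.88 kb (chr8:33841781-33842751), and those beyond it lay between 3.05-fold and 4.57-fold. At Fli1 they ran from 1.545 to 47.945 kb, with a highest value of 5.95-fold at 35.458 kb. Erg, the third ETS factor with several, had 9 peaks of at most 4.50-fold. Podxl, which encodes the sialomucin podocalyxin, reached 8.09-fold at 21.737 kb, in the first intron of another transcript of the gene. Eng, a co-receptor for the TGF-beta family, reached 7.27-fold at 8.883 kb, and Tek, the angiopoietin receptor, 6.90-fold at 7.067 kb. The VEGF receptor gene Kdr had 2, of 3.05-fold and 3.49-fold.

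In the fatty acid list, 12 of 32 genes (37.5%, 21.1 to 56.3%) had a distal intron 1 peak, with 17.3 peaks per megabase. The strongest, of 7.05-fold, was the Echs1 peak inside Zfp710. Lpl, the lipoprotein lipase, had peaks of 6.12-fold at 1.092 kb (chr16:22559615-22561193) and 3.81-fold at 2.324 kb. Acacb, the acetyl-CoA carboxylase bound to mitochondria, had 1 peak, of 5.91-fold at 8.085 kb. Cpt1a, which starts the carnitine shuttle, had 3 peaks, of 5.69, 3.49 and 4.001 at 1.424, 2.252 and 2.957 kb. With peaks kept only where the host transcript owned the nearest TSS, 10 of 32 genes remained, against 4.56% of protein-coding genes under that rule.

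Contractile genes were well represented in the class. In the sarcomere and Z-disc list, 12 of 35 (34.3%, 19.1 to 52.2%) had a distal intron 1 peak, which includes Myoz2 with its peaks inside Synpo2. The strongest were 5.93-fold at Myom2, an M-band protein (3.337 kb), 5.93-fold at the actin filament regulator Lmod2 (3.278 kb) and 5.92-fold at Cmya5, or myospryn (8.971 kb). No gene of the list reached 6-fold in the class, but the list held only 23 such peaks. Over the whole class 4.80% reached 6-fold, so this absence does not mark the list as weak. The median over its genes of the strongest such peak was 5.08-fold. Over all genes of the class that median was 4.58 with a near peak and 4.35 without. The formin gene Fhod3 had 6 peaks, between 3.18-fold and 5.49-fold. Among genes for calcium handling and ion channels, 9 of 32 (28.1%) had one. Gja1, the ventricular gap junction protein connexin 43, had the strongest, 6.64-fold at 4.936 kb (chr20:37880612-37882561), beside 4.76-fold at 2.79 kb. Pln, the phospholamban that restrains the calcium pump, had peaks of 3.43-fold at 1.084 kb and 5.69-fold at 2.592 kb. The potassium channel gene Kcnj5 reached 5.51-fold at 3.876 kb, and Kcnq1 had 9 peaks of at most 4.78-fold. In the intercalated disc and dystrophin list, 7 of 28 (25%) had one at a median gene length of 77.9 kb. Jup, or plakoglobin, reached 7.25-fold at 7.579 kb and vinculin (Vcl) 6.37-fold at 12.818 kb, both in first introns of other transcripts of the gene. With the host rule, 3 of these 28 genes remained.

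**Figure D5:**
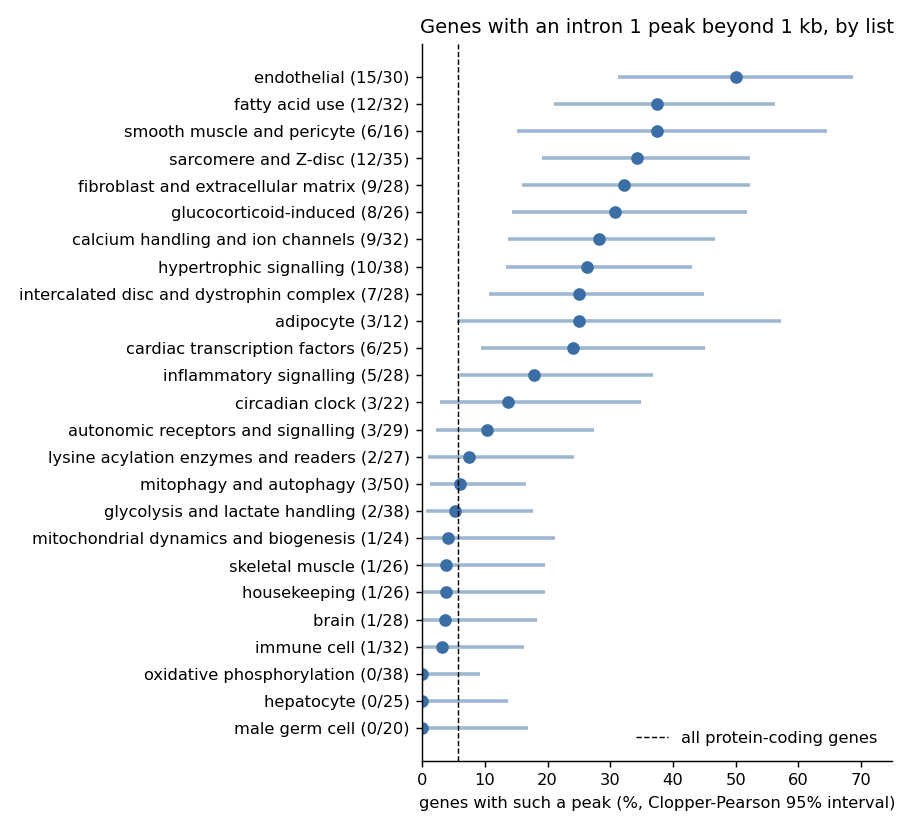
Percent of genes with a distal intron 1 peak in 25 gene lists, as points with Clopper-Pearson 95% intervals and the counts in the labels. The dashed line is the share over all protein-coding genes, 5.64%. Endothelial genes are highest (50%), and the oxidative phosphorylation, hepatocyte and male germ cell lists are at 0.

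Signalling and transcription factor lists lay in the middle of the range. Of hypertrophic signalling genes, 10 of 38 (26.3%) had a distal intron 1 peak, at a median gene length of 110 kb. The adenylyl cyclase gene Adcy5 had 14, from 23.312 to 74.942 kb, the strongest 5.85-fold at 30.15 kb. Pde4d, a cyclic AMP phosphodiesterase, reached 5.25-fold at 72.866 kb, and the alpha-1A adrenergic receptor gene Adra1a 4.88-fold at 25.538 kb. Of autonomic receptor and signalling genes, 3 of 29 (10.3%) had one. They were Adra1a, Grk5 and the inhibitory G protein gene Gnai2, whose 6 peaks lay from 1.245 kb (6.14-fold) to 10.793 kb (4.20-fold). Of cardiac transcription factors, 6 of 25 (24.0%) had one, led by Tbx20 (4.67-fold), Mef2d (5 peaks, at most 4.33-fold) and Tead1 (4.30-fold). Of glucocorticoid-induced genes, 8 of 26 (30.8%) had one. After Klf9 the strongest were Foxo3 with 6.67-fold at 25.28 kb and the zinc finger gene Zbtb16 with 6.56-fold at 1.05 kb, a 3566 bp peak that covered the TSS. Of clock genes, 3 of 22 (13.6%) had one. They were Per2 (7.21-fold at 2.412 kb), the repressor Cry2 (5.48-fold at 3.281 kb) and Nfil3 (4.57-fold at 2.562 kb). Of inflammatory signalling genes, 5 of 28 (17.9%) had one, with Irak2 at 5.44-fold, Il6r at 5.28-fold and Stat3 at 4.60-fold. Counted over genes with any peak, the clock share was 16.7% of 18 genes, below the yardstick of 20.8%. The other lists of this paragraph then lay between 25% (autonomic) and 40% (hypertrophic signalling).

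Lists for other cells of the heart varied. In the fibroblast and extracellular matrix list, 9 of 28 (32.1%) had a distal intron 1 peak, with 26.2 peaks per megabase. A peak of any class was assigned to 16 of the 28, and to none of Col1a1, Col1a2, Col3a1, Dcn, Lum, Pdgfra and Postn. None of the 8 fibroblast markers above had a distal intron 1 peak. The basement membrane collagen gene Col4a1 had 12, from 1.924 to 34.698 kb, and reached 6.68-fold at 29.448 kb (chr16:83549762-83553459). Sparc, a matrix-binding glycoprotein, had 7, with 5.90-fold at 2.777 kb and 5.75-fold at 6.443 kb. The TGF-beta receptor gene Tgfbr2 reached 5.01-fold at 31.859 kb, and the protease inhibitor gene Timp3 had 11 peaks of at most 4.79-fold. Of smooth muscle and pericyte genes, 6 of 16 (37.5%) had one, with Ebf1 (5.65-fold), Pdgfrb (4.87-fold) and Mcam (4.63-fold) highest. With the host rule, 3 of these 16 genes remained. Of adipocyte genes, 3 of 12 (25%) had one, namely the nuclear receptor gene Pparg (4.88-fold), the lipase gene Lipe (6 peaks, at most 4.51-fold) and Pnpla2 (4.51-fold).

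Counted over all genes of a list, metabolic lists outside fatty acid use were near the yardstick of 5.64%, except oxidative phosphorylation at 0%. Counted over genes with any peak, where the yardstick is 20.8%, most were lower. The shares were 0% for oxidative phosphorylation, 7.41% for glycolysis and lactate, and 10.7% for mitophagy and autophagy. They were 10% for mitochondrial dynamics and biogenesis and 22.2% for lysine acylation. None of 38 oxidative phosphorylation genes had a distal intron 1 peak (0%, 0 to 9.25%), while 22 of the 38 had a peak within 1 kb of the TSS. Their median length was 8.74 kb. Of 38 glycolysis and lactate genes 2 did (5.26%), Ldhd and Aldoa (3.43-fold at 1.313 kb), and 21 had a near peak. With the host rule neither remained. Of 50 mitophagy and autophagy genes, the process the series title names, 3 did (6%, 1.25 to 16.5%), and 20 had a near peak. They were Bnip3, a mitophagy receptor of the outer mitochondrial membrane, with peaks of 3.78-fold at 1.787 kb and 4.78-fold at 2.704 kb, the ubiquitin ligase gene Mul1 with 3.70-fold at 4.559 kb, and Map1lc3b, which encodes an LC3 protein of the autophagosome, with 2.86-fold at 2.061 kb. Of 24 genes for mitochondrial dynamics and biogenesis, Ppara alone had any, 3 peaks of at most 5.56-fold (17.678 kb). Of 27 lysine acylation enzymes and readers, Kat6b (3 peaks, at most 5.26-fold) and Brd3 (3.10-fold) did.

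Lists for other tissues and ubiquitous genes were at or below the yardstick of 5.64%, counted over all genes of a list. None of 25 hepatocyte genes (0 to 13.7%) and none of 20 male germ cell genes (0 to 16.8%) had a distal intron 1 peak. In 4 further lists 1 gene did, B2m of 26 housekeeping genes (3.49-fold), Casq1 of 26 skeletal muscle genes (2.86-fold), Snap25 of 28 brain genes (2 peaks, at most 3.82-fold) and Csf1r of 32 immune genes (3.70-fold). The brain list had a median gene length of 115 kb and 0.187 peaks per megabase. Few genes of these tissue lists had any peak. Counted over genes with any peak, the yardstick is 20.8%. The share was then 33.3% of 3 brain, 20% of 5 immune, 20% of 5 skeletal muscle and 5.88% of 17 housekeeping genes. It was 0% of 4 hepatocyte and 0% of 2 male germ cell genes. At these list sizes the intervals reach well above 5.64%.

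By chromosome, the share of peaks that were distal intron 1 peaks was highest on chromosomes 16 (19.7%), 12 (19.6%) and 19 (19.5%). It was lower on 18 (11.2%) and X (6.84%, 16 of 234 peaks), against 15.4% over all peaks. Counted over intron peaks alone, it was 40.3% on 16, 36.6% on 12, 46.5% on 19, 24.3% on 18 and 22.9% on X. Over all intron peaks it was 35.1%, so chromosome 12 was then close to the whole. Chromosome Y had 2 peaks, neither in the class. All 4419 lay on assembled chromosomes.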

How the data were processed

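Peaks of 1 ChIP library were analysed. The build was rn6, and the submitters' processing notes list, in no stated role, HOMER, deepTools, MACS2, SAMtools, Bowtie2, Trim Galore and FastQC; versions are not given in the sources used here. The peaks carry 1 sample name, per the file headers, which does not show whether the input was the caller's background. The authors' fold enrichment is a ratio per peak, the deposited q is given as −log10, and the deposited score copies it; all were used only within this list. A path in the header of the deposited annotation names a q of 0.05. Sequencing depth is unknown, so absence of a peak means no call at this depth.

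Peak class, host transcript and signed distance to the nearest TSS came from the deposited annotation, which was joined to the peak list by peak name. The members and gene lists were chosen with earlier results of these data known. A host transcript was tied to a gene through other peaks that name it as nearest. Names were matched to RefSeq symbols of GRCr8 (1317 of 1522 names in the class), used for names, gene length and promoters only; promoters need an entry of full length, and all 715 list entries had a row. No rn6 sequence was used here.

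Shares have 95% Wilson or, for lists, Clopper-Pearson intervals, and medians have order-statistic intervals. No test was run, since 1 library allows none. The named genes are the 12 strongest and 6 widest peaks at genes with a matched symbol, the 6 genes with the most peaks, the 3 genes with the strongest peak in each list, the 3 peaks on either side of the boundary and the 3 farthest; others were named after their values were seen, and 1 gene the rule selects is not reported here. Python 3.11.15, pandas 2.3.3, numpy 2.4.6, scipy 1.17.1 and matplotlib 3.10.9 were used, and the scripts were tested on simulated peaks. Alternatives were boundaries of 500, 2000 and 5000 bp, stricter peak sets (−log10 q of at least 5, fold of at least 4), the host rule, joined peaks, assembled chromosomes and other meanings of a near peak.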

Additional observations from a re-analysis of the deposited data

How the results depend on the processing

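Boundaries of 500, 2000 and 5000 bp gave 17.8%, 13.6% and 10.9% of all peaks in the class and median distances of 8462, 13826 and 18369.5 bp. At 500 bp the median width was 371 bp, the downstream share 87.9% and the host share 74.1%; at 5000 bp the host share was 69.4%. At 2000 bp 13.04% of listed genes had such a peak, against 16.9% as reported. With −log10 q of at least 5 the difference in median fold from near intron 1 peaks turned from -0.103 to 0.0786. That filter gave 13.5% of peaks, a median fold of 5.19, width of 618 bp and distance of 10047.5 bp, and 8.31% of listed genes (2.40% of protein-coding genes). A near peak was then found for 38.6% of genes, against 28.8% for later introns and 21.3% for intergenic peaks. With fold of at least 4 the values were 14.8% of peaks, a width of 431.5 bp and 12.0% of listed genes. Joining peaks gave 14.3% and a width of 439 bp. The host rule gave a near peak for 61.6% of genes and 13.6% of listed genes. A near peak was found for 29.2% of genes as promoter-TSS class and for 69.4% within 3000 bp. In 2 alternatives added after the data were seen, peaks wholly beyond 1000 bp were 14.96% of all, and 59.1% of genes had any part of a peak within 1000 bp. The other 30 values of these results under alternatives stayed within their intervals.

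For single lists, 106 of 125 values stayed within their interval. Under −log10 q of at least 5, 9 of 30 endothelial, 6 of 32 fatty acid, 6 of 35 sarcomere and none of 25 cardiac transcription factor genes kept a peak. The planned share in repeats was not run, because the deposited detailed annotation holds no repeat classes. No paired analysis was possible because the ChIP library is the only one with values. No replicate could be left out.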
